A study of Mus musculus with 6 samples.

Results

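Cytokine receptor subunits are the membrane proteins through which a macrophage senses interleukins and interferons. The 10 genes Il4ra, Il6ra, Il6st, Il10ra, Il10rb, Il13ra1, Il17ra, Il21r, Ifngr1 and Ifngr2 were taken by their GENCODE M21 symbol from the 55335 genes of the count table, and all 10 were found and had enough counts to be tested. They were compared between 3 libraries of BMDMs given LPS and 3 given PBS, both collected after 1 h. Upon LPS exposure Il17ra was upregulated 8.49-fold, 7 other genes rose by less (Il10rb and Il13ra1 among them, though not when libraries were scaled by their size alone), and Il6ra and Il6st fell to 0.748 and 0.765 of their PBS level.

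Most of these receptors work as assemblies of unlike chains. A ligand-binding chain meets a signalling chain that is often shared between several cytokines, and JAK kinases attached to the inner parts of the chains phosphorylate STAT transcription factors. Il4ra pairs with the common gamma chain or with Il13ra1 to bind IL-4 and IL-13, Il6ra delivers IL-6 to the shared signal transducer gp130 (encoded by Il6st), Il10ra and Il10rb form the IL-10 receptor, and Ifngr1 and Ifngr2 form the IFN-γ receptor. Il21r pairs with the common gamma chain, while Il17ra, which has no JAK, joins Il17rc to bind IL-17A and IL-17F and signals through the adaptor Act1 and TRAF proteins. In macrophages IFN-γ primes for microbial killing, IL-4 and IL-13 drive alternative activation, and IL-10 restrains the inflammatory response.

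BMDMs are macrophages grown from mouse bone marrow. The mice were adult male C57BL/6 with no engineered allele, and their marrow cells were kept in medium conditioned by L929 cells, a source of the growth factor M-CSF. LPS is a component of the bacterial outer membrane that is sensed by TLR4, PBS is its vehicle, and the dose of LPS is not given in the sources used here. Total RNA was sequenced, and the labels number the libraries of each group as replicates and batches 1, 2 and 3. The methods state in general that experiments were repeated independently, but no source says that these libraries came from separate animals or cultures, so p-values measure only the spread between these libraries, which may be technical.

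The libraries held between 37787611 and 41516330 counts. The TMM factor, which scales libraries so that most genes keep their level, was 1.15 in PBS libraries and between 0.864 and 0.872 in LPS libraries, so every CPM value and fold change below depends on it. If library size was used without that factor, the middle of the log2 fold changes of all tested genes (their median) dropped by 0.404. All 7 macrophage markers were tested, and their summed level was between 29500 and 30800 CPM (counts scaled to a common library size after the TMM factor) with PBS and between 32300 and 32600 CPM with LPS. Most of this sum was Lyz2, at a mean of 23300 CPM with PBS and 24200 CPM with LPS. At an adjusted p under 0.05, 5 of the 7 rose, Fcgr1 fell and Mertk did not pass. Of all tested genes 32.9% rose and 34.9% fell. With library size alone 0 macrophage markers rose and 6 fell. The 6 T cell markers summed to between 20.6 and 22.6 CPM with PBS and between 30.8 and 31.1 CPM with LPS, nearly all of it Cd4, and Cd3d, Cd3e, Cd3g, Cd8a and Trac had at most 9 counts in any library. The 6 neutrophil markers summed to at most 36.3 CPM with PBS and 47.9 CPM with LPS. S100a9 had 805 to 982 counts and S100a8 479 to 575, while Ly6g was at or under 3 counts. Of the 5 neutrophil markers tested, 3 rose at an adjusted p under 0.05, where 32.9% of all tested genes did, and 0 rose with library size alone. The 4 B cell, 3 NK cell and 4 fibroblast markers summed to at most 3.4, 0.775 and 14.3 CPM in any library. All 4 dendritic cell markers rose at an adjusted p under 0.05, where 32.9% of all tested genes did, and their sum went from between 3.44 and 3.75 CPM to between 10.8 and 12.4 CPM. One of them, Xcr1, had 2, 1 and 2 counts with PBS and 27, 17 and 15 with LPS. Xcr1 thus entered the test through its LPS libraries and so had to differ. The part of these other markers in the results for the receptor genes was not tested.

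Because Il6ra and Il6st were the genes that fell and Ifngr1 and Ifngr2 are a complete receptor whose chains both rose, the DNA just before the start of these 4 genes is shown. Each sequence is the 250 bases before the gene start, 5′ to 3′ on the gene's strand, from RefSeq on GRCm38.p6. Capitals mark matches to the κB motif (GGGNNNNNCC) and the GC box (GGGCGG) on either strand, and neighbouring or overlapping matches run together. The regions are chr3:89913197-89913446 on the minus strand for Il6ra, and, on the plus strand, chr13:112463820-112464069 for Il6st, chr10:19591699-19591948 for Ifngr1 and chr16:91546809-91547058 for Ifngr2.
Il6ra: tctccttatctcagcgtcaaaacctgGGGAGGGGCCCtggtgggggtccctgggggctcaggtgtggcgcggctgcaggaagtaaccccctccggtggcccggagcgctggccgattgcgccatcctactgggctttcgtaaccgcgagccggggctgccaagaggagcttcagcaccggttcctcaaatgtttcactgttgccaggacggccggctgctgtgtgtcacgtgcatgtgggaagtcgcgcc
Il6st: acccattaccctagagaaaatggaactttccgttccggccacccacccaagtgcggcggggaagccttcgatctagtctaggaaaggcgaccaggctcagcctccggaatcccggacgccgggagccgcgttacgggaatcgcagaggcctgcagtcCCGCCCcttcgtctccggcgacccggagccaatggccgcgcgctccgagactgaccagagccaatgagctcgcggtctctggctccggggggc
Ifngr1: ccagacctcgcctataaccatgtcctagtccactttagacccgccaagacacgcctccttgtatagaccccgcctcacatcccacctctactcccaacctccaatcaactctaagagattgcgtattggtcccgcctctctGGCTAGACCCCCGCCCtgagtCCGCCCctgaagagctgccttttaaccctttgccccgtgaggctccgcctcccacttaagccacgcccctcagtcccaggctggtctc
Ifngr2: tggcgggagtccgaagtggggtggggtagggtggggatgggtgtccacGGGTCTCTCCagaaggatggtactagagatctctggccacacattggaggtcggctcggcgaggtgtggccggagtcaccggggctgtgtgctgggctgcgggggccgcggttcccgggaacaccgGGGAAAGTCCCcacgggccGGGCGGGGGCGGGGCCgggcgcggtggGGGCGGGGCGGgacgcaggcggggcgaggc

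The Il6ra sequence held 2 overlapping κB matches that began 224 and 223 bases before the start, and no GC box. The Il6st sequence was the reverse in content, with no κB match and 1 GC box at 93 bases. In Ifngr1 a κB match at 109 bases stood directly before a GC box at 99 bases, with another GC box at 88. Ifngr2 had 4 κB matches, at 202, 76, 75 and 51 bases, and 4 GC boxes, at 57, 51, 30 and 25 bases, and its last κB match shared bases with the GC box at 51. Its window was also the richest in G and C of these 4, at 74.0% against 65.2% for Il6ra, 66.0% for Il6st and 59.2% for Ifngr1.

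Of the 10 receptor genes 7 were matched by symbol to the table of promoters, all but Il10ra, Il10rb and Il17ra. A κB match was present in 5 of these 7, against 45.8% of the 32851 promoters in the table, and a GC box in 6 of 7, against 32.7%. None of the 7 windows held an AP-1 site (TGANTCA, present in 6.75% of all promoters), a CRE (TGACGTCA, 1.55%) or a GAS element (TTCNNNGAA, 7.02%), searched on both strands. The genes with and without a κB match each included a gene that rose and a gene that fell. Il4ra, which rose, and Il6st, which fell, had none, while Il6ra, which fell, and Ifngr1, which rose, had at least 1. These are matches of letters and not measured binding sites.

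With PBS the 10 genes spanned a 37.7-fold range of level, taken as TMM-scaled CPM per kb of annotated exon. Ifngr1 stood at 75.9 ± 1.47 (SD, n = 3) CPM per kb and Il10ra at 71.8 ± 2.28, and these leading values overlapped between the genes. Ifngr2 followed at 36.2 ± 0.819, then Il10rb at 32.7 ± 1.56 and Il6st at 31.1 ± 0.622, the last pair overlapping. Il4ra was at 24.1 ± 0.555 CPM per kb, Il6ra at 10.9 ± 0.385, Il21r at 6.68 ± 0.149 and Il13ra1 at 4.77 ± 0.239. Il17ra was the lowest of the 10 at 2.02 ± 0.00789 CPM per kb. Apart from the overlapping pairs, each gene's 3 PBS libraries lay above those of the next gene in this order. The exon length joins the exons of all annotated transcripts of a gene, and the spread between libraries does not include an error in it. The order of genes with close levels is therefore uncertain, with PBS and with LPS.

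**Figure D1:**
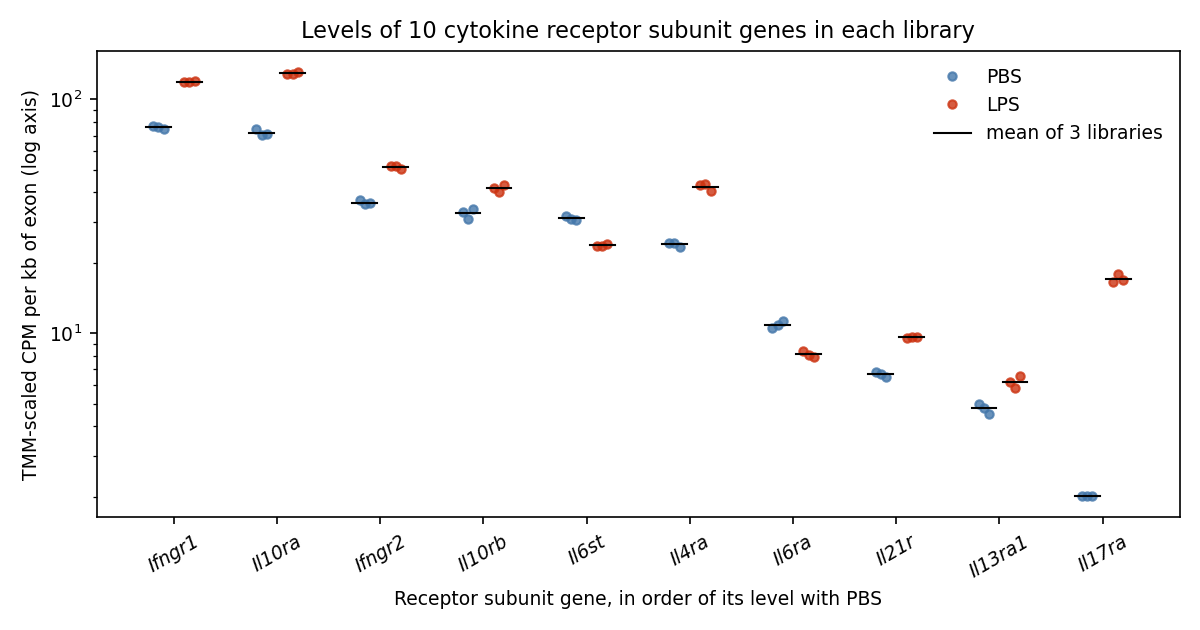
Level of each receptor subunit gene in every library, as TMM-scaled CPM per kb of exon on a log axis, with PBS in blue, LPS in red and the mean of 3 libraries as a bar. Il17ra moves from the bottom of the PBS order (2.02 CPM per kb) to 17.1 CPM per kb with LPS, and Il6ra and Il6st are the genes whose red points lie below the blue.

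With LPS the range between the highest and lowest gene was 20.9-fold. Il10ra led at 130.0 ± 1.21 CPM per kb (SD, n = 3), above Ifngr1 at 119.0 ± 0.116 with no overlap, whereas the same genes had overlapped with PBS. Ifngr2 stood at 51.4 ± 0.805, and Il4ra at 42.3 ± 1.58 overlapped with Il10rb at 41.7 ± 1.44. Il6st was at 23.8 ± 0.333, now below Il4ra. Il17ra, at 17.1 ± 0.782 CPM per kb, had passed Il21r (9.61 ± 0.068), Il6ra (8.14 ± 0.25) and Il13ra1 (6.19 ± 0.392), and Il13ra1 was now the lowest.

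Of the 10 genes, 1 was called upregulated (adjusted p under 0.05 and log2 fold change above 1 in edgeR's quasi-likelihood test), where 10.5% of the 15687 tested genes were called, and 0 were called downregulated, where 10.4% were. At the adjusted p alone 8 genes rose, where 32.9% of tested genes did, and 2 fell, where 34.9% did, but with scaling by library size alone Il10rb and Il13ra1 turned to -0.05 and -0.03 on the log2 scale and no longer passed. Their median log2 fold change was 0.52, against -0.01 over all tested genes, and with scaling by library size alone these medians were 0.11 and -0.42. In TMM-scaled CPM the LPS and PBS libraries did not overlap for any of the 10, but the share of all tested genes without overlap was not computed. The lack of overlap is therefore not read as particular to the receptor genes. In unscaled counts the groups did overlap for Il10rb, Il13ra1, Il21r and Ifngr2. In these bulk samples, fewer cells of a type and less RNA per cell cannot be told apart.

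**Figure D2:**
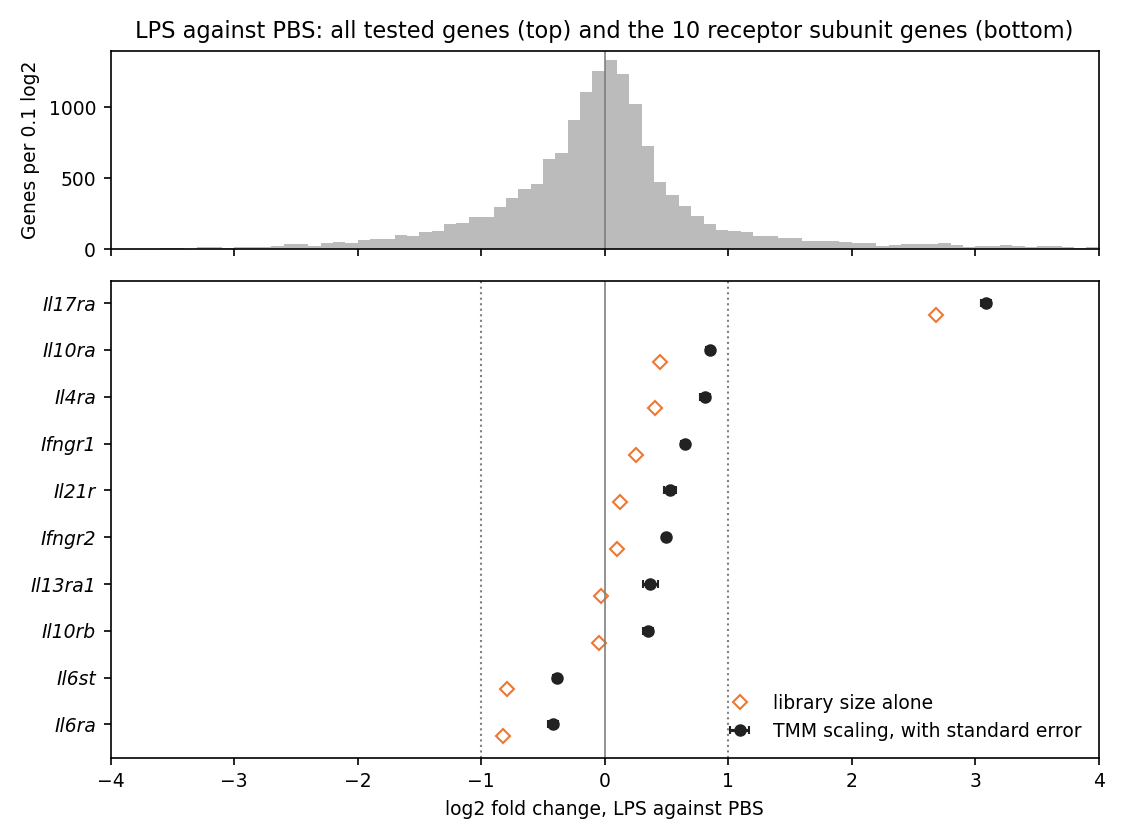
Log2 fold change, LPS against PBS, of all tested genes as a histogram in bins of 0.1 within the plotted range (top) and of the 10 receptor subunit genes (bottom), as filled circles with the standard error under TMM scaling and as open diamonds under library size alone. Il17ra lies far to the right at 3.09, Il6ra and Il6st are negative under both scalings, and Il10rb and Il13ra1 are positive under TMM but at -0.05 and -0.03 under library size alone, while the dotted lines mark values of 1 and -1.

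Il17ra (chr6:120463247-120487559, plus strand) encodes the chain shared by the receptors of IL-17A, IL-17F, IL-17C and IL-25. The PBS libraries had 831, 786 and 809 counts of it, or 17.5, 17.4 and 17.5 CPM. The LPS libraries had 4788, 5085 and 4979 counts, or 143, 156 and 146 CPM. Every LPS library was thus far above every PBS library. The log2 fold change was 3.09 ± 0.04 (SE, adjusted p = 1.94e-20, edgeR), which ranked 476 from the top among all tested genes, and errors of log2 fold changes below are standard errors too. Within batches 1, 2 and 3 it was 3.03, 3.16 and 3.06, and with library size alone it was 2.68. Of its nearest annotated genes neither was called upregulated. Kdm5a, a histone demethylase gene 18672 bp away, fell by 0.23 ± 0.04 on the log2 scale (adjusted p = 6.85e-05, edgeR), and Tmem121b, 1379 bp away, had at most 5 counts in any library.

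The partner chain for IL-17A, Il17rc, was barely detected, with 5, 5 and 3 counts in PBS and 1, 7 and 1 in LPS libraries, and was not tested. Il17rb and Il17re, the chains for IL-25 and IL-17C, had at most 4 and 2 counts, and Il17rd, with 7 to 21 counts, had a log2 fold change of 0.43 ± 0.36 (adjusted p = 0.303, edgeR). The level of Il17ra per kb was between 224 and 1540 times that of Il17rc in LPS libraries and between 48.5 and 83.2 times in PBS libraries, but with so few Il17rc counts these ratios are not read as a change. Of the 5 genes listed as adaptors of IL-17 receptors, 3 rose and 1 fell at an adjusted p under 0.05. Of all tested genes 32.9% rose and 34.9% fell. Traf3, which binds the receptor and limits its signal, was called upregulated at a log2 fold change of 1.05 ± 0.04 (adjusted p = 1.23e-13, edgeR). It still rose but was no longer called with library size alone, at 0.65, and likewise lost its call with upper quartile scaling and in the test against a log2 fold change of 1. Traf6, the ubiquitin ligase that carries the signal to NF-κB, rose by 0.61 and Traf2 by 0.53 on the log2 scale, while Traf3ip2, which encodes Act1, fell by 0.48 ± 0.10 (adjusted p = 3.49e-04, edgeR). Traf5 had a log2 fold change of -0.15 (adjusted p = 0.0904, edgeR).

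Il10ra (chr9:45253837-45269149, minus strand) encodes the ligand-binding chain of the IL-10 receptor. It was at 260, 245 and 248 CPM in PBS libraries (12387, 11086 and 11425 counts) and at 449, 453 and 457 CPM in LPS libraries (15067, 14775 and 15568 counts). The groups did not overlap in counts or CPM, and the log2 fold change was 0.85 ± 0.03 (adjusted p = 1.25e-13, edgeR), or 1.80-fold. Il10rb (chr16:91406164-91425834, plus strand), the second chain, which is also used by the receptors of IL-22 and the λ interferons, moved less. It was at 126, 118 and 129 CPM with PBS and at 160, 153 and 164 CPM with LPS, a log2 fold change of 0.35 ± 0.04 (adjusted p = 2.86e-07, edgeR). Its counts, 5992, 5324 and 5973 against 5362, 4993 and 5576, overlapped and were no higher with LPS, so its rise rests on the scaling. The other chains that pair with Il10rb were at or near the floor of 3 counts, with Il22ra1 at 0 in every library and Ifnlr1 at most 5.

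The ratio of Il10ra to Il10rb within a library does not depend on the scaling. In reads per kb it was 2.25, 2.27 and 2.08 with PBS and 3.06, 3.22 and 3.04 with LPS. The ratios of the groups did not overlap, and their log2 means differed by 0.50 (exact two-sided permutation p = 0.1, the smallest that 3 libraries against 3 allow, and 0.14 after Benjamini-Hochberg adjustment over 7 pairs of chains). The difference between the groups was larger than the spread between libraries, and this permutation test cannot pass 0.05 with 3 libraries a group.

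Ifngr1 (chr10:19591949-19610229, plus strand) encodes the ligand-binding chain of the IFN-γ receptor. Its PBS libraries were at 220, 217 and 212 CPM (10475, 9799 and 9769 counts) and its LPS libraries at 340 CPM in each (11404, 11094 and 11586 counts). The LPS libraries were higher in counts and CPM, with a log2 fold change of 0.65 ± 0.03 (adjusted p = 2.16e-12, edgeR). Ifngr2 (chr16:91547072-91565623, plus strand), the signalling chain, was at 140, 134 and 136 CPM with PBS and at 195, 196 and 190 CPM with LPS, a log2 fold change of 0.50 ± 0.03 (adjusted p = 1.79e-10, edgeR). Its counts of 6665, 6054 and 6259 with PBS overlapped with 6551, 6386 and 6473 with LPS. The ratio of Ifngr1 to Ifngr2 in reads per kb was 2.08, 2.14 and 2.07 with PBS and 2.30, 2.30 and 2.37 with LPS. These ratios did not overlap, and the difference of 0.15 on the log2 scale (exact two-sided permutation p = 0.1, adjusted 0.14) was smaller than that of the IL-10 receptor chains, a comparison that was not tested.

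**Figure D3:**
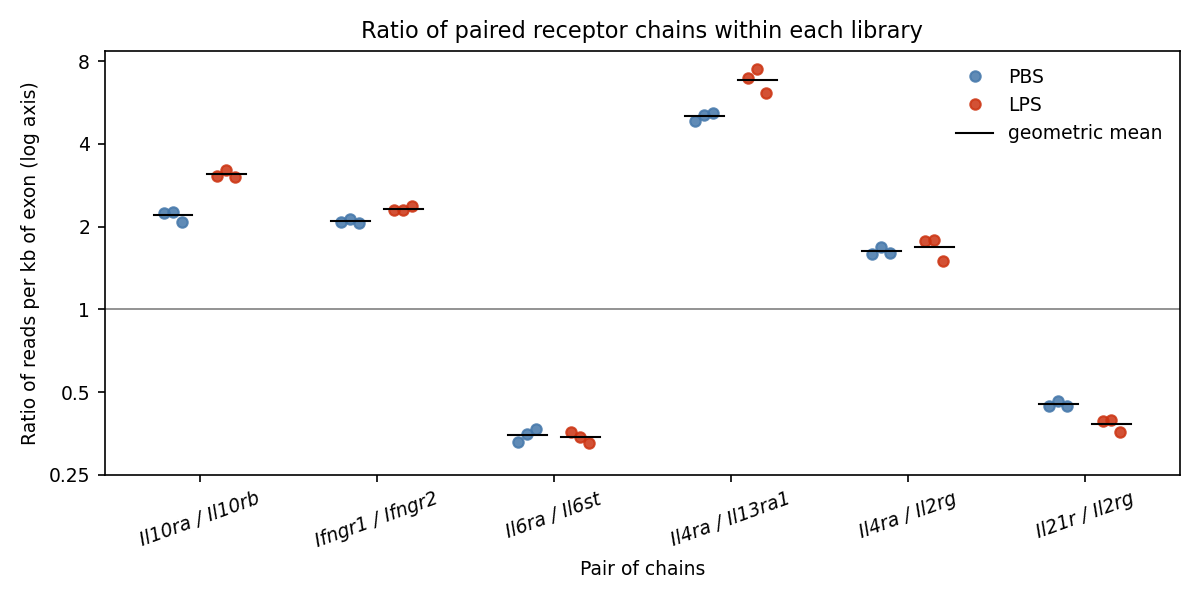
Ratio of the reads per kb of exon of paired receptor chains in every library, on a log axis, with PBS in blue, LPS in red and the geometric mean as a bar, leaving out the pair with the barely detected Il17rc. The LPS ratios lie above the PBS ratios without overlap for Il10ra to Il10rb, Ifngr1 to Ifngr2 and Il4ra to Il13ra1 and below them for Il21r to Il2rg, and they overlap for Il6ra to Il6st and Il4ra to Il2rg.

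Il4ra (chr7:125552120-125579474, plus strand) binds IL-4 and is part of both receptor types for IL-4. It was at 146, 147 and 141 CPM in PBS libraries (6953, 6627 and 6488 counts) and at 258, 260 and 243 CPM in LPS libraries (8661, 8502 and 8271 counts). All LPS libraries were higher, and the log2 fold change of 0.81 ± 0.04 (adjusted p = 5.80e-13, edgeR) was close to that of Il10ra. Il13ra1 (chrX:36112110-36171259, plus strand), which binds IL-13 and completes the type II receptor, was at 18.6, 17.8 and 16.8 CPM with PBS and 22.9, 21.6 and 24.5 CPM with LPS. Its log2 fold change was 0.37 ± 0.06 (adjusted p = 2.81e-05, edgeR), and within batches 1, 2 and 3 it was 0.30, 0.28 and 0.54. Its counts overlapped between the groups, at 884, 804 and 775 with PBS and 767, 704 and 833 with LPS. The decoy chain Il13ra2 had at most 2 counts in any library.

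Il21r (chr7:125603429-125633570, plus strand) encodes the IL-21 binding chain. It was at 22.6, 22.3 and 21.7 CPM with PBS and 31.7, 32.0 and 32.1 CPM with LPS, a log2 fold change of 0.53 ± 0.05 (adjusted p = 1.43e-08, edgeR). Its counts of 1077, 1008 and 999 with PBS overlapped with 1064, 1045 and 1094 with LPS, and with library size alone the log2 fold change was 0.12 (adjusted p = 0.0236, edgeR). The common gamma chain Il2rg, partner of both Il21r and Il4ra, went from 35.3 ± 1.01 to 60.1 ± 3.70 CPM (SD, n = 3), with a log2 fold change of 0.77 ± 0.05 (adjusted p = 8.32e-11, edgeR).

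Within libraries the ratio of Il4ra to Il13ra1 in reads per kb was 4.86, 5.10 and 5.18 with PBS and 6.98, 7.47 and 6.14 with LPS, a log2 difference of 0.44 (exact two-sided permutation p = 0.1, adjusted 0.14). The ratio of Il4ra to Il2rg was 1.59, 1.69 and 1.60 with PBS and 1.77, 1.79 and 1.5 with LPS, and its groups overlapped, with a log2 difference of 0.05 (exact two-sided permutation p = 0.8, adjusted 0.8). The ratio of Il21r to Il2rg was 0.446, 0.465 and 0.444 with PBS and 0.393, 0.397 and 0.359 with LPS, so it was lower in every LPS library by a log2 difference of -0.24 (exact two-sided permutation p = 0.1, adjusted 0.14). The chain ratio for the type II IL-4 receptor was thus higher in every LPS library, while that for the type I receptor overlapped through LPS replicate 3. Without that library, the only one that made the groups overlap, the log2 difference for the type I receptor was 0.13. The exact two-sided permutation test then gave p = 0.2, the smallest that 2 libraries against 3 allow. With any other library left out the difference was between 0.0 and 0.07. Over all genes LPS replicate 3 differed more from the other LPS libraries, with a chi-square per degree of freedom of 13.7 and 20.3, than these did from each other, at 5.41. Whether this bears on the ratio of Il4ra to Il2rg was not tested.

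Il6ra (chr3:89864059-89913196, minus strand) encodes the chain that binds IL-6, and Il6st (chr13:112464070-112510086, plus strand) encodes gp130. Il6ra was at 90.9, 93.7 and 97.5 CPM in PBS libraries (4326, 4232 and 4498 counts) and at 72.6, 69.9 and 68.3 CPM in LPS libraries (2437, 2283 and 2326 counts). Il6st was at 353, 343 and 340 CPM with PBS (16817, 15488 and 15693 counts) and at 261, 263 and 268 CPM with LPS (8773, 8585 and 9137 counts). Both genes were lower in every LPS library, in counts and in CPM. The log2 fold change was -0.42 ± 0.04 for Il6ra (adjusted p = 2.41e-08, edgeR) and -0.39 ± 0.03 for Il6st (adjusted p = 5.49e-09, edgeR). Library size alone gave larger falls, of -0.82 and -0.79. Within batches 1, 2 and 3 the values were -0.32, -0.42 and -0.51 for Il6ra and -0.43, -0.38 and -0.34 for Il6st.

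The ratio of Il6ra to Il6st in reads per kb was 0.330, 0.351 and 0.368 with PBS and 0.357, 0.342 and 0.327 with LPS. The groups overlapped and their log2 means differed by -0.03 (exact two-sided permutation p = 0.7, adjusted 0.8). Among the 6 tested genes of gp130 and the chains that pair with it, 4 fell, 0 rose and 2 did not pass the test, where 34.9% of all tested genes fell. The genes that fell include Il6ra and Il6st themselves, so this count is not read as a fall of the whole family. Lifr, the receptor of LIF, went from 67.1 ± 0.681 to 49.2 ± 1.33 CPM (SD, n = 3), with a log2 fold change of -0.45 ± 0.04 (adjusted p = 6.79e-09, edgeR). Il11ra1, whose reads may be shared with a near copy in the mouse genome and which is uncertain for that reason, had a log2 fold change of -0.13 ± 0.05 (adjusted p = 0.0345, edgeR), and its CPM values overlapped between the groups. Osmr, the oncostatin M chain, had 25 to 39 counts and a log2 fold change of 0.28 ± 0.22 (adjusted p = 0.279, edgeR), and Il27ra, the chain for IL-27, was at 3.54 ± 0.0769 and 3.53 ± 0.222 CPM (adjusted p = 0.975, edgeR).

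Several receptor genes lie side by side in the genome. On chromosome 16 Ifnar2, Il10rb, Ifnar1 and Ifngr2 follow each other on the plus strand, with gaps of 574, 59403 and 39630 bp. Ifnar1 and Ifnar2, the chains of the type I interferon receptor, had log2 fold changes of 0.85 ± 0.04 and 0.34 ± 0.03 (adjusted p = 4.17e-13 and 8.55e-08, edgeR), so Il10rb, at 0.35, was close to the gene on its left, and with library size alone both were slightly negative, at -0.05 for Il10rb and -0.06 for Ifnar2. Tmem50b, which lies beyond Ifngr2, had a log2 fold change of -0.06 (adjusted p = 0.231, edgeR). On chromosome 7 Il4ra and Il21r are neighbours 23954 bp apart, with log2 fold changes of 0.81 and 0.53. The genes on their outer sides, Nsmce1 and Gtf3c1, were at -0.09 (adjusted p = 0.293, edgeR) and 0.13 (adjusted p = 0.00464, edgeR). The unscaled counts of Gtf3c1 were lower in every LPS library, so its positive value rests on the scaling.

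Near the other receptor genes the neighbours were mostly at low counts. Il31ra, a relative of gp130 that lies 9811 bp from Il6st, had at most 1 count, and Il22ra2, 11768 bp from Ifngr1, had at most 2. On its other side Il6st is followed by Ankrd55, which fell by 0.86 ± 0.24 on the log2 scale (adjusted p = 0.00389, edgeR) at 16 to 55 counts. BC049352, 3816 bp from Il10ra, rose by 1.14 ± 0.19 (adjusted p = 3.37e-05, edgeR) at 32 to 67 counts. Atp8b2 beside Il6ra and Dock11 beside Il13ra1 were at log2 fold changes of 0.14 and 0.15. In unscaled counts both were lower in every LPS library, so these positive values rest on the scaling.

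Annotated exons of 3 receptor genes overlap another gene. Il4ra shares 571 exonic bp with an antisense gene, Gm44876, which had at most 2 counts, and Il6ra shares 242 bp with antisense Gm42809, which had at most 4. Il10rb shares 569 bp with Gm21970, a gene model on the same strand that had 0 counts in every library, and how reads in shared bases were counted is not given in the sources used here. The level of Il10rb per kb and its chain ratio may be affected by this.

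Across 49 receptor subunit genes, made up of the 10 genes, 14 partner chains and 25 other class I and II receptor chains, 32 were tested. In log2 fold change Il17ra stood above all other tested chains but Il2ra, a chain of the IL-2 receptor, which had 4 to 10 counts with PBS and 60 to 98 with LPS (log2 fold change 3.91 ± 0.29, adjusted p = 1.24e-09, edgeR). Il2ra entered the test through its LPS libraries and so had to differ, and with a filter of 10 counts in every library it was not tested. The only other receptor chain called upregulated was Il15ra, which presents IL-15, from 5.41 ± 0.171 to 13.0 ± 0.674 CPM (log2 fold change 1.26 ± 0.08, adjusted p = 1.05e-10, edgeR). Per kb of exon Il17ra reached 17.1 CPM with LPS, against 2.92 for Il15ra and 0.406 for Il2ra. Of the 16 tested among the other class I and II chains, 13 rose, 1 fell and 2 did not pass, where 32.9% of all tested genes rose and 34.9% fell. With library size alone 7 rose, 2 fell and 7 did not pass, and the shares of all tested genes were not computed for that scaling. The gene that fell under TMM scaling was Il12rb1, the chain shared by the receptors of IL-12 and IL-23, with a log2 fold change of -0.60 ± 0.16 (adjusted p = 0.00332, edgeR). The 6 tested partner chains had a median log2 fold change of 0.14, with 1 that rose, 2 that fell and 3 that did not pass.

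Of 22 ligand genes 8 were tested and 7 of these were called upregulated, where 10.5% of all tested genes were. In every library 12 ligand genes were at or under 3 counts. Genes nearly absent with PBS, such as Il6 and Lif, entered the test through their LPS libraries and so had to differ, and with a filter of 10 counts in every library 5 ligands were called. Il6 had 1, 2 and 4 counts with PBS and 5798, 5293 and 5885 with LPS. Il10 went from 323, 284 and 315 counts to 47965, 44681 and 48867 (log2 fold change 7.73 ± 0.05, adjusted p = 1.22e-24, edgeR). These are the ligands of the falling Il6ra and Il6st, and of the rising Il10ra with Il10rb, whose own rise rests on the scaling. Of the other cytokines that signal through gp130, Lif, Osm, Clcf1 and Il27 rose, with Lif from 5, 7 and 10 to 2031, 2017 and 2082 counts, Osm from 4.83 ± 0.435 to 233 ± 1.67 CPM (SD, n = 3), Clcf1 from 12 to 16 to 829 to 932 counts, and Il27 from 1.19 ± 0.0984 to 8.56 ± 0.683 CPM. Ebi3, the other chain of IL-27, went from 24.8 ± 0.945 to 59.9 ± 1.61 CPM, and at 0.87 on the log2 scale was not called with library size alone. Cntf, also a gp130 cytokine, had 5 to 15 counts and a log2 fold change of -0.26 ± 0.42 (adjusted p = 0.598, edgeR), and Il11 and Ctf1 had at most 2 and 4 counts. The ligands of the remaining receptors were near or under the floor, with at most 4 counts of Il4, 1 of Il13, 2 of Ifng, 0 of Il17a, 2 of Il17f and 0 of Il21 in any library, so ligand genes for the receptor of the largest rise, Il17ra, were not detectable at this depth.

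**Figure D4:**
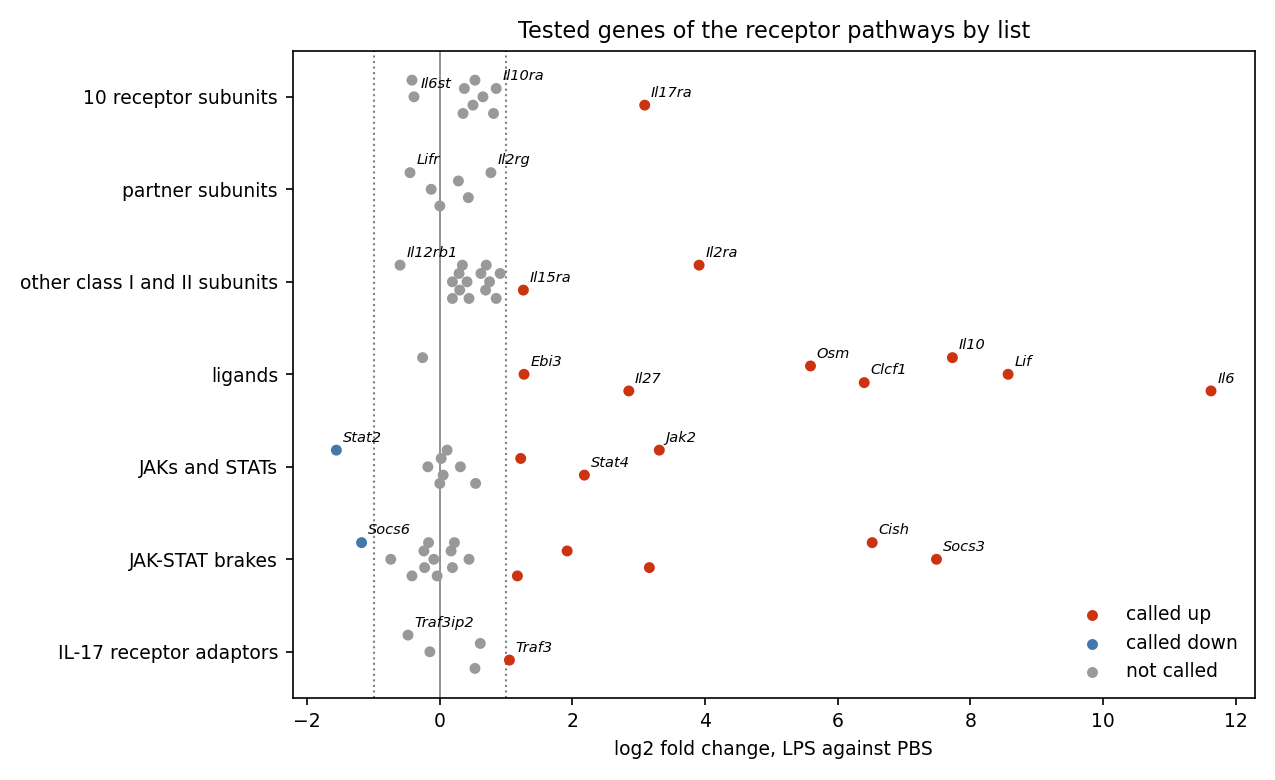
Log2 fold change, LPS against PBS under TMM scaling, of every tested gene in the receptor lists, with red for called upregulated, blue for called downregulated, grey for neither and dotted lines at 1 and -1. Among receptor chains Il17ra, Il2ra and Il15ra are red, 7 of 8 tested ligands are red, and Stat2 and Socs6 are blue. Small positive values shown here can be negative with scaling by library size alone, with which the median of all tested genes dropped by 0.404.

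All 11 JAK and STAT genes were tested, and 3 were called upregulated and 1 downregulated, where 10.5% and 10.4% of all tested genes were. Jak2, a kinase used by Ifngr2 and gp130, went from 56.7 ± 1.13 to 561 ± 7.74 CPM (SD, n = 3), with a log2 fold change of 3.31 ± 0.04 (adjusted p = 3.68e-22, edgeR), similar in size to that of Il17ra. Stat4 rose by 2.18 ± 0.09 and Stat5a by 1.22 ± 0.05 on the log2 scale (adjusted p = 4.94e-13 and 1.83e-13, edgeR), and with library size alone Stat5a, at 0.81, was not called. Stat2, used by type I interferon receptors, fell by 1.56 ± 0.04 on the log2 scale (adjusted p = 4.85e-16, edgeR). Stat3, the main STAT of IL-6, IL-10 and IL-21 signals, rose by 0.54 ± 0.03 (adjusted p = 9.10e-11, edgeR).

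For other JAK and STAT genes the direction or the outcome of the test depended on the scaling. Jak1, used by nearly all of these receptors, had a log2 fold change of 0.31 and Stat6, the STAT of IL-4 and IL-13, of 0.11, but with library size alone these were -0.10 and -0.30. Jak3, the kinase of the common gamma chain, was at 0.05 (adjusted p = 0.501, edgeR), and Tyk2, used by Il10rb, at 0.02 (adjusted p = 0.645, edgeR). Stat5b was at 69.4 ± 0.745 CPM with PBS and 69.2 ± 2.21 CPM with LPS (SD, n = 3; adjusted p = 0.949, edgeR). With library size alone Jak3, Tyk2 and Stat5b fell by 0.36, 0.39 and 0.41 on the log2 scale (adjusted p = 1.63e-05, 7.15e-09 and 1.42e-08, edgeR).

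All 17 genes listed as brakes of JAK-STAT signalling were tested. Of these 5 were called upregulated and 1 downregulated, where 10.5% and 10.4% of all tested genes were. Socs3, which binds gp130 and shuts down IL-6 signalling, went from 10.3 ± 0.793 to 1860 ± 65.9 CPM (SD, n = 3), with a log2 fold change of 7.49 ± 0.06 (adjusted p = 5.45e-24, edgeR). Cish, a STAT5 target that restrains cytokine receptors, went from 18 to 28 counts with PBS to 1582 to 1658 with LPS (log2 fold change 6.52 ± 0.09, adjusted p = 1.47e-20, edgeR). Socs1, which inhibits the JAKs of the IFN-γ receptor, rose by 3.16 ± 0.11, Socs2 by 1.92 ± 0.18 on the log2 scale, and the phosphatase gene Ptpn2 rose 2.25-fold. Socs6 fell by 1.18 ± 0.04 on the log2 scale (adjusted p = 1.87e-15, edgeR). At the adjusted p alone 9 brakes rose, 6 fell and 2 did not pass, where 32.9% of all tested genes rose and 34.9% fell. With library size alone 5 brakes rose, 11 fell and 1 did not pass, so the balance of rises and falls turned with the scaling. The shares of all tested genes with library size alone were not computed. Ptpn2 was not called with library size alone, at a log2 fold change of 0.76.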

How the data were processed

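The authors aligned paired-end total RNA reads to GRCm38 with HISAT2 2.1.0 and deposited raw gene counts made with featureCounts 2.0.0. The annotation release, strand setting and handling of shared reads are not given in the sources used here. Symbols and exon lengths came from GENCODE M21, and 181 identifiers had no symbol. The members and gene lists were chosen with earlier results of these data known.

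Counts were filtered with filterByExpr, which left 15687 genes, scaled with TMM and tested in edgeR 4.0.16 (R 4.3.3) by the quasi-likelihood test without covariates, and p-values of all tested genes were adjusted together by the Benjamini-Hochberg method. Upregulated and downregulated genes passed an adjusted p of 0.05 with a log2 fold change beyond 1 in size. Standard errors were derived from the F statistic. The tests were also run on simulated data in which equal numbers of genes rose and fell, or no gene changed. The simulation was not built with the difference in TMM factors seen here, so it could not test the scaling. A gene at or under 3 counts was taken as being at the floor, a limit that reflects counting error alone because reads had no molecular identifier.

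Named genes were the 10 receptor genes, tested JAK, STAT and partner chain genes (1 gene is not reported here), up to 6 called genes a list and the nearest neighbours of each receptor gene. Ebi3, Cntf, Il12rb1, Traf2, Traf5, Traf6, Traf3ip2 and the undetected ligands and chains were named outside this rule, after their values were seen.

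Libraries totalled 37787611 to 41516330 counts, which keeps counting error small for the 10 genes, each with at least 704 counts in every library. Replicate libraries differed by more than sampling noise, with a chi-square per degree of freedom of 5.41 to 20.3. Alternatives were other scalings and filters, DESeq2 1.42.0, limma voom (limma 3.58.1), a replicate block, a test against a log2 fold change of 1, the 10 most abundant genes left out and each library left out.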

Additional observations from a re-analysis of the deposited data

How the results depend on the processing

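The direction and side of the threshold of the log2 fold changes held for 148 of 150 combinations of the 10 receptor genes and 15 alternative settings. The 2 exceptions were the reversals with library size alone, at -0.05 for Il10rb (adjusted p = 0.237, edgeR) and -0.03 for Il13ra1 (adjusted p = 0.657, edgeR), and 6 genes then rose and 2 fell at the adjusted p alone. The shift of all tested genes by -0.404 between these scalings is as large as these changes. With each library left out in turn, Il17ra ranged from 3.05 to 3.11, Il6ra from -0.44 to -0.39, Il6st from -0.40 to -0.37, and 8 receptor genes rose and 2 fell each time. Over all settings other than library size alone, Il17ra ranged from 2.94 to 3.11 on the log2 scale. Library size alone also left 1 of the other class I and II chains called upregulated and 1 called downregulated, 2 brakes called downregulated and 0 IL-17 receptor adaptors called upregulated (Traf3 was lost), and it took the ligands called upregulated from 7 to 6, the JAK and STAT genes from 3 to 2 and the brakes from 5 to 4, with Ebi3, Stat5a and Ptpn2 no longer called. Upper quartile scaling and the test against a log2 fold change of 1 likewise left 0 adaptors called upregulated, and a filter of 10 counts in every library left 1 of the other chains called upregulated, since Il2ra was then not tested, and 5 ligands.

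The replicate numbers are called batches in the labels, but same-numbered libraries deviated together only weakly, with correlations of -0.0139, 0.0822 and 0.0387 for numbers 1, 2 and 3, so they were not taken as pairs. With a replicate block Il17ra was at 3.08, 8 receptor genes rose and 2 fell, and no call among the 10 changed. With 3 libraries a group the chain ratios could not reach a permutation p under 0.1, and Il17rc and the ligands of Il17ra, Il21r and Ifngr1 had too few counts to be tested.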
